A study of Mus musculus with 27 samples.

Results

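The genes described here are those of the immunity-related GTPases (IRG proteins) Irgm1, Irgm2, Igtp, Iigp1, Tgtp1, Tgtp2 and Ifi47, and Gvin1 of a related family. These 8 genes were taken by gene symbol from a table of 23995 genes. They were measured in cultured microglia of newborn mice, and all 8 passed the filter that left 14668 genes for testing. Microglia were detached by shaking from mixed glia grown out of the cortex. The wild type was C57BL/6J, and the CB2-/- strain, B6.Cg-Cnr2tm1Zim, was made to lack the cannabinoid receptor encoded by Cnr2. The labels name no other allele, no Cre and no transgene in either genotype. Cells stayed unstimulated or were given, for 16 h, PolyI:C, CpG at 1 nmol/ml, or a mixture of 100 ng/ml LPS and 20 ng/ml interferon-γ. LPS is sensed by Toll-like receptor (TLR) 4, the double-stranded RNA analogue PolyI:C by TLR3, and CpG DNA by TLR9. The study asks whether CB2 takes part in microglial activation through these receptors. There were 6 libraries of unstimulated wild type and 3 in each of the other 7 groups. Nothing in the labels tells whether replicates are separate animals or cultures; the p-values thus reflect the spread among these libraries only, which may be technical.

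IRG proteins are interferon-inducible GTPases that act against microbes living inside membrane-bound vacuoles, such as Toxoplasma gondii in mice. The GKS members (Iigp1, Tgtp1, Tgtp2 and Ifi47), named after residues of their GTP-binding motif, load onto the vacuole and disrupt it. The GMS members (Irgm1, Irgm2 and Igtp) sit on the cell's own membranes and hold the GKS proteins in an inactive state, and Irgm1 also acts in autophagy. Gvin1 belongs to the very large inducible GTPases, a related family whose role is less well known. In mouse cells these genes are switched on by interferon-γ and by type I interferons, each through its own receptor and DNA motif. Mice depend on IRG proteins to control T. gondii, a parasite that persists in the brain.

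The members' promoters are shown because both interferon routes end in short DNA motifs. A 300-base promoter, from 250 bases before to 50 after the transcription start, was at hand for 6 of the 8 members from RefSeq on GRCm38.p6; Iigp1 and Gvin1 are named only. It was searched on both strands for a core of the interferon-stimulated response element (ISRE), which is GAAA repeated after any 2 bases, and for TTCNNNGAA, the palindromic gamma-activated site (GAS). Each stretch below has 70 bases, runs 5′ to 3′ on the gene's strand and carries its motif matches in capitals.
Irgm1, chr11:48871421-48871490 (minus strand): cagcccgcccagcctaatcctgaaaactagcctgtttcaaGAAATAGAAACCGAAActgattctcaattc
Irgm2, chr11:58214873-58214942 (plus strand): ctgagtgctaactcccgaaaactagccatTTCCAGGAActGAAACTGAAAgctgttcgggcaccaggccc
Igtp, chr11:58199482-58199551 (plus strand): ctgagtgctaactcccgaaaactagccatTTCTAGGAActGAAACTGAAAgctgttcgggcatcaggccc
Tgtp1, chr11:48992294-48992363 (minus strand): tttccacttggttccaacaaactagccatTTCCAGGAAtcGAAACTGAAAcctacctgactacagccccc
Tgtp2, chr11:49064253-49064322 (minus strand): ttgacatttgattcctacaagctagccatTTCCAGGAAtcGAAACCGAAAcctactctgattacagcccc
Ifi47, chr11:49076487-49076556 (plus strand): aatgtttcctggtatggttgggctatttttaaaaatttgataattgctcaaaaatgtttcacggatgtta
An ISRE match was found in 5 of the 6 promoters and a GAS match in 4, against 3.44% and 8.3% of all 32851 RefSeq promoters of that length. Irgm2, Igtp, Tgtp1 and Tgtp2 held both, as did 0.454% of all promoters, and in each of the 4 the GAS came first, with 2 bases between it and the ISRE. The ISRE started 34 bases before the transcription start in Igtp, 64 in Irgm2, 70 in Tgtp2 and 77 in Tgtp1. In Irgm1 a pair of ISRE matches overlapped, the farther of them starting 30 bases before the start, and no GAS match was present. The Ifi47 promoter held neither. Aligned at the ISRE without gaps, the windows of Irgm2 and Igtp differed at 2 of 70 bases, those of Tgtp1 and Tgtp2 at 17, and pairs across these genes at 23 to 29. RefSeq places the starts of Irgm1, Irgm2 and Tgtp1 inside the GENCODE gene models given next. These are matches of letters and were not tested as binding sites.

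A first cluster of 4 of the genes lies on chromosome 11 (GENCODE M21, GRCm38), with Irgm1 at 48861968 to 48871683, Tgtp1 at 48985327 to 48994172 and Tgtp2 at 49057194 to 49064206 on the minus strand, and Ifi47 at 49076587 to 49096974 on the plus strand. Igtp (58199556 to 58207591) and Irgm2 (58199618 to 58222782) form a second cluster on the plus strand of chromosome 11, and their gene models overlap. Iigp1 is on chromosome 18 (60376027 to 60392634, plus strand) and Gvin1 on chromosome 7 (106156556 to 106215326, minus strand). The members share sequence. Of the distinct 31-base words in its transcripts, Tgtp1 had 83.2% in common with Tgtp2, and Tgtp2 had 89.2% in common with Tgtp1. Gvin1 had 99% in common with the gene model Gm4070 and none with another member. Igtp shared 15.9% with Irgm2, which shared 9.16% in return. The share found in any other gene was 2.88% for Irgm1, 6.92% for Iigp1 and 6.37% for Ifi47. Reads of Tgtp1 and Tgtp2, and of Gvin1 and Gm4070, may thus have been divided between the genes by the authors' counting, so their single values are uncertain and sums are given beside them.

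**Figure D1:**
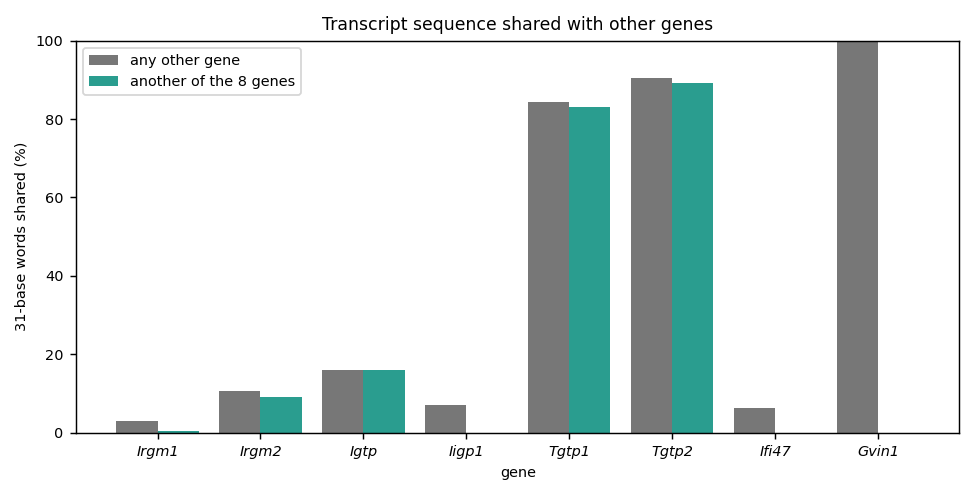
Share (%) of the distinct 31-base words in each gene's GENCODE M21 transcripts that also occur in any other gene (grey) or in another of the 8 genes (green). Tgtp1 and Tgtp2 share most of their words with each other (83.2% and 89.2%), Gvin1 shares 99.7% with genes outside the 8, and Irgm1 shares 2.88%.

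Values are the authors' normalised counts per gene, which are not divided by gene length, so levels are compared between libraries and not between genes. Summed over all genes they ran from 6341299 to 14151982 per library, of which the 8 genes together made up 0.0126 to 0.674%. Libraries were grouped here into 2 series by their numbers alone. Those of 3012 to 3023 hold unstimulated wild-type replicates 1 to 3 and all stimulated wild type. Those of 2048 to 2188 hold all libraries labelled CB2-/- (2048 to 2059) and unstimulated wild-type replicates 4 to 6 (2186 to 2188). Each change is therefore a contrast within a number series. A direct comparison of stimulated wild type with stimulated CB2-/- cells cannot be told apart from the series. The same holds for a response that differs between the genotypes, since each genotype's responses come from a different series. Cnr2 itself was at 172 to 233 in unstimulated wild type, at 0 to 22 in stimulated wild type and at 217 to 454 in every library labelled CB2-/-; a value per gene does not show whether the deleted part is missing, so the genotype rests on the labels. All 10 microglial markers were above 0 in every library (summed 30270 to 113294), with P2ry12 and Tmem119 lowest at 2.41 and 2.96. Summed astrocyte markers (8 of 8 in the table) ranged from 56.8 to 2730, fibroblast markers (7 of 7) from 31.4 to 3114 and oligodendrocyte-lineage markers (6 of 6) from 148 to 1061. By these markers, unstimulated, PolyI:C and CpG replicate 1 of wild type stood apart, with summed astrocyte markers of 225, 56.8 and 79.7 and fibroblast markers of 31.4, 50.4 and 38.5, each the lowest of its group. By composition, libraries of the series 2048 to 2188 stood apart: Gm19220, Gm26822 and Grip2 together took 50.8% of the summed count in CB2-/- PolyI:C replicate 2, 31.1% and 21.4% in unstimulated wild-type replicates 5 and 6 and 20.3% in unstimulated CB2-/- replicate 3, against 0.00453% or less in every library of 3012 to 3023. Mitochondrial genes took 0.242 to 1.42% in the former series and 1.5 to 3.2% in the latter. Without CB2-/- PolyI:C replicate 2, 6 of the 8 genes in place of 7 rose with PolyI:C in CB2-/-, and 7 still had a smaller PolyI:C response than in wild type. The 6 lymphocyte markers were not among the 23995 genes and so could not be analysed. In bulk RNA, fewer cells of a type and less RNA per cell cannot be told apart.

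All 8 GTPase genes rose in wild-type microglia both after LPS plus interferon-γ and after PolyI:C. On the log2(normalised count + 1) scale, the changes after LPS plus interferon-γ ran from 2.65 for Gvin1 to 10.02 for Tgtp1, with a median of 5.69. After PolyI:C they ran from 2.52 for Gvin1 to 6.79 for Iigp1, with a median of 4.57. In CB2-/- cells all 8 rose after LPS plus interferon-γ (median 3.23) and 7 after PolyI:C (median 1.31). A gene was called by limma's test at an adjusted p under 0.05 (Benjamini-Hochberg over all genes). By the same rule 21.7% of all genes tested were called higher after LPS plus interferon-γ in wild type, 21.2% after PolyI:C in wild type, 12.8% after LPS plus interferon-γ in CB2-/- and 5.11% after PolyI:C in CB2-/-. The median over all genes lay between -0.06 and 0.05 in these 4 comparisons. All 8 were called higher in both wild-type comparisons with each library left out in turn. The 5 monocyte and neutrophil markers in the table, of which 2 to 4 were at 0 in every library, summed to 235 to 356 with PolyI:C and 264 to 379 with CpG in wild type and to 14.8 to 82.2 elsewhere. The high sums rest on S100a8, which reached 377, while no other marker of the list exceeded 36.4 in any library. Their mean log2(normalised count + 1) in wild type was 3.065 to 3.38 with PolyI:C, 2.03 to 2.15 with CpG and 1.995 to 2.68 with LPS plus interferon-γ. Oligodendrocyte-lineage markers summed to 888 to 1061 in unstimulated wild type, 148 to 176 with LPS plus interferon-γ and 149 to 185 with PolyI:C. These sums rest mainly on Mbp, at 105 to 981 over all libraries, while no other marker of the list exceeded 79.0. Their mean log2(normalised count + 1) was 3.39 to 4.62 in unstimulated wild-type replicates 1 to 3. It was 3.38 to 4.02 with LPS plus interferon-γ and 1.90 to 3.36 with PolyI:C in wild type. Whether other cells had a part in the changes was not tested.

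**Figure D2:**
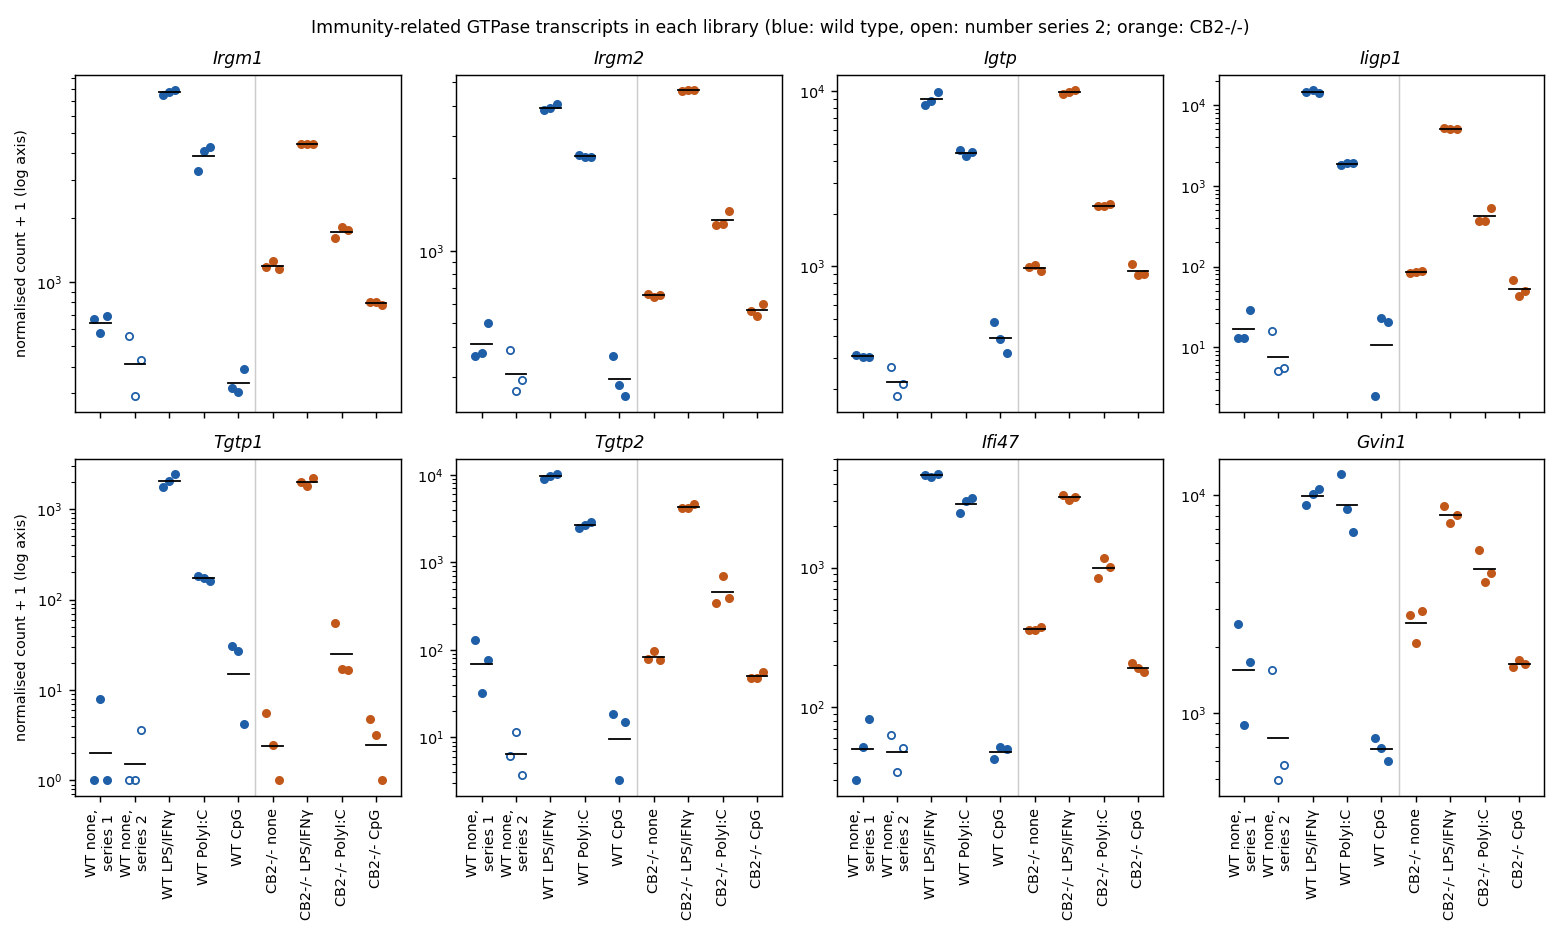
Normalised count + 1 (log axis) of each of the 8 genes in every library, by group, with a bar at the mean of the log values; blue is wild type (open circles for unstimulated replicates 4 to 6) and orange is CB2-/-. In every panel the LPS/IFNγ and PolyI:C libraries of wild type lie above all 6 unstimulated wild-type libraries.

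Among the regulatory GMS genes, Irgm1 had normalised counts of 670.3, 572 and 689 in unstimulated wild-type replicates 1 to 3 and of 555, 289.9 and 430.3 in replicates 4 to 6. After LPS plus interferon-γ it reached 7476, 7741 and 7923 in wild type, after PolyI:C 3309, 4115 and 4260.4, and after CpG 316, 305 and 389. The first pair of stimuli thus stood wholly above the unstimulated libraries, and CpG wholly below replicates 1 to 3. In CB2-/- cells the unstimulated counts were 1169.5, 1253 and 1146. LPS plus interferon-γ gave 4409.7, 4420.0 and 4415 there, PolyI:C 1603, 1801 and 1752 and CpG 801, 802 and 778, with no overlap between any of these 4 groups. The log2 change (± SE) was 3.58 ± 0.15 in wild type and 1.89 ± 0.15 in CB2-/- for LPS plus interferon-γ, and 2.59 ± 0.15 and 0.53 ± 0.15 for PolyI:C. The PolyI:C change in CB2-/- (adjusted p = 0.0281) lost its call without CB2-/- unstimulated replicate 1, 2 or 3 or without CB2-/- PolyI:C replicate 2 or 3, where it was 0.50 to 0.57 (adjusted p = 0.055 to 0.0995).

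Irgm2, a partner of Irgm1 on the Golgi, was at 365, 377 and 501 and at 387, 260.2 and 289.7 in the first and the last 3 unstimulated wild-type libraries. LPS plus interferon-γ gave 3824, 3898 and 4057 in wild type and 4596, 4640.2 and 4656 in CB2-/-, the one GMS gene whose CB2-/- libraries all lay above the wild-type ones. With PolyI:C it was at 2510.0, 2459 and 2463 in wild type and at 1283, 1295 and 1469 in CB2-/-, where unstimulated cells had 661, 646 and 657. Its log2 change after LPS plus interferon-γ was 3.26 ± 0.14 in wild type and 2.82 ± 0.14 in CB2-/-. After PolyI:C it was 2.59 ± 0.14 and 1.04 ± 0.14.

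Igtp (the protein also called Irgm3), a GMS protein of the endoplasmic reticulum and lipid droplets, was at 310.3, 303 and 302 in unstimulated wild-type replicates 1 to 3 and at 264, 180.2 and 213 in replicates 4 to 6. It rose to 8363, 8752 and 9907 with LPS plus interferon-γ and to 4612, 4285 and 4482 with PolyI:C in wild type. CB2-/- cells had 991, 1019.6 and 940.1 unstimulated, 9685, 9841 and 10182 with LPS plus interferon-γ and 2201, 2199.6 and 2271 with PolyI:C. Under LPS plus interferon-γ the ranges of the genotypes overlapped, whereas under PolyI:C all CB2-/- libraries lay below all wild-type ones. Log2 changes were 4.88 ± 0.12 and 3.33 ± 0.12 for LPS plus interferon-γ in wild type and CB2-/-, and 3.86 ± 0.12 and 1.18 ± 0.12 for PolyI:C.

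The effector gene Iigp1 encodes Irga6, a GTPase that coats the vacuole of T. gondii. Unstimulated wild-type replicates 1 to 3 had 12.2, 11.9 and 28.1, and replicates 4 to 6 had 15.1, 4.07 and 4.49. LPS plus interferon-γ raised it to 14367, 15422 and 14105, and PolyI:C to 1819, 1911 and 1909. In CB2-/- cells it was 81.9, 84.2 and 87.9 unstimulated, 5187, 5049.9 and 5076 with LPS plus interferon-γ and 364, 370.2 and 537 with PolyI:C. Every unstimulated CB2-/- library thus lay above every unstimulated wild-type one, and every stimulated CB2-/- library of these treatments below its wild-type counterparts. The log2 change with LPS plus interferon-γ was 9.74 ± 0.54 in wild type and 5.90 ± 0.54 in CB2-/-, and with PolyI:C 6.79 ± 0.54 and 2.29 ± 0.54.

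Tgtp1 and Tgtp2 encode near-identical proteins known as Irgb6. Tgtp1 was listed at 0 in 4 of the 6 unstimulated wild-type libraries and at 6.87 and 2.58 in replicates 2 and 6. It was at 1762, 2052 and 2438 with LPS plus interferon-γ and at 183, 170.5 and 158 with PolyI:C in wild type. In CB2-/- cells it was at 4.57, 1.48 and 0 unstimulated, at 2008, 1800.3 and 2208 with LPS plus interferon-γ and at 53.6, 16.2 and 15.6 with PolyI:C. The LPS plus interferon-γ libraries of both genotypes overlapped, and PolyI:C was the lower by far in each. Because the unstimulated values are at or near 0, the log2 change depends on the pseudocount: it was 10.02 ± 0.83 and 9.70 ± 0.83 for LPS plus interferon-γ in wild type and CB2-/-, and 6.43 ± 0.83 and 3.38 ± 0.83 for PolyI:C. Without wild-type unstimulated replicate 2 the wild-type changes were 11.01 (adjusted p = 1.55e-10) and 7.42 (adjusted p = 1.09e-07). Without CB2-/- unstimulated replicate 1 or 3 the CB2-/- change with LPS plus interferon-γ was 10.31 or 9.07, called both times. With PolyI:C in CB2-/- it was 3.99 (adjusted p = 0.00841) without CB2-/- unstimulated replicate 1. It was no longer called without CB2-/- unstimulated replicate 3, at 2.75 (adjusted p = 0.0763), or without CB2-/- PolyI:C replicate 1, at 2.82 (adjusted p = 0.0733).

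Tgtp2 differed between the unstimulated wild-type series, replicates 1 to 3 being at 128, 31.4 and 76.5 and replicates 4 to 6 at 5.14, 10.7 and 2.7. Wild-type libraries had 8827, 9728 and 10181 with LPS plus interferon-γ and 2454, 2672 and 2874 with PolyI:C. CB2-/- libraries had 77.5, 95.3 and 76.2 unstimulated, 4138, 4162 and 4645 with LPS plus interferon-γ and 339, 696 and 395 with PolyI:C. The LPS plus interferon-γ and PolyI:C groups overlapped neither with one another nor with unstimulated cells. The summed row of Tgtp1 and Tgtp2, which does not depend on how reads were divided between the genes, changed by 7.31 (adjusted p = 8.45e-15) and 5.27 (adjusted p = 3.77e-12) in wild type and by 6.20 (adjusted p = 1.02e-12) and 2.51 (adjusted p = 1.92e-05) in CB2-/- for LPS plus interferon-γ and PolyI:C. Tgtp2 alone changed by 7.12 ± 0.49 and 5.28 ± 0.49 in wild type and by 5.69 ± 0.49 and 2.44 ± 0.49 in CB2-/-.

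Ifi47, which encodes the effector Irgd, was at 28.8, 50.9 and 81.5 and at 61.8, 33.5 and 49.8 in unstimulated wild-type replicates 1 to 3 and 4 to 6. It reached 4592, 4487 and 4688 with LPS plus interferon-γ and 2464, 3015 and 3137 with PolyI:C. CB2-/- cells had 354, 359 and 377 unstimulated, 3332, 3073 and 3198 with LPS plus interferon-γ and 839, 1170.0 and 1006 with PolyI:C. Unstimulated CB2-/- libraries were several-fold above the wild-type ones and did not overlap with them. Log2 changes were 6.51 ± 0.24 in wild type and 3.13 ± 0.24 in CB2-/- for LPS plus interferon-γ, and 5.83 ± 0.24 and 1.45 ± 0.24 for PolyI:C.

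Gvin1, the very large inducible GTPase, had 2556, 879 and 1716 and 1571, 490.1 and 579 in the first and the last 3 unstimulated wild-type libraries, a spread that was wide beside its changes. It was at 8955, 10028 and 10577 with LPS plus interferon-γ and at 12437, 8618 and 6737 with PolyI:C in wild type, ranges that overlapped. In CB2-/- it was at 2818, 2082 and 2932 unstimulated, 8839, 7418 and 8102 with LPS plus interferon-γ and 5572, 3979 and 4363 with PolyI:C. The log2 change was 2.65 ± 0.33 and 2.52 ± 0.33 in wild type and 1.65 ± 0.33 with LPS plus interferon-γ in CB2-/-. With PolyI:C in CB2-/- it was 0.83 ± 0.33 (adjusted p = 0.135) and not called, although all 3 libraries lay above the unstimulated ones; it was called without wild-type unstimulated replicate 4 (adjusted p = 0.0405). Summed with Gm4070, the same change was 1.11 (adjusted p = 0.00484).

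**Figure D3:**
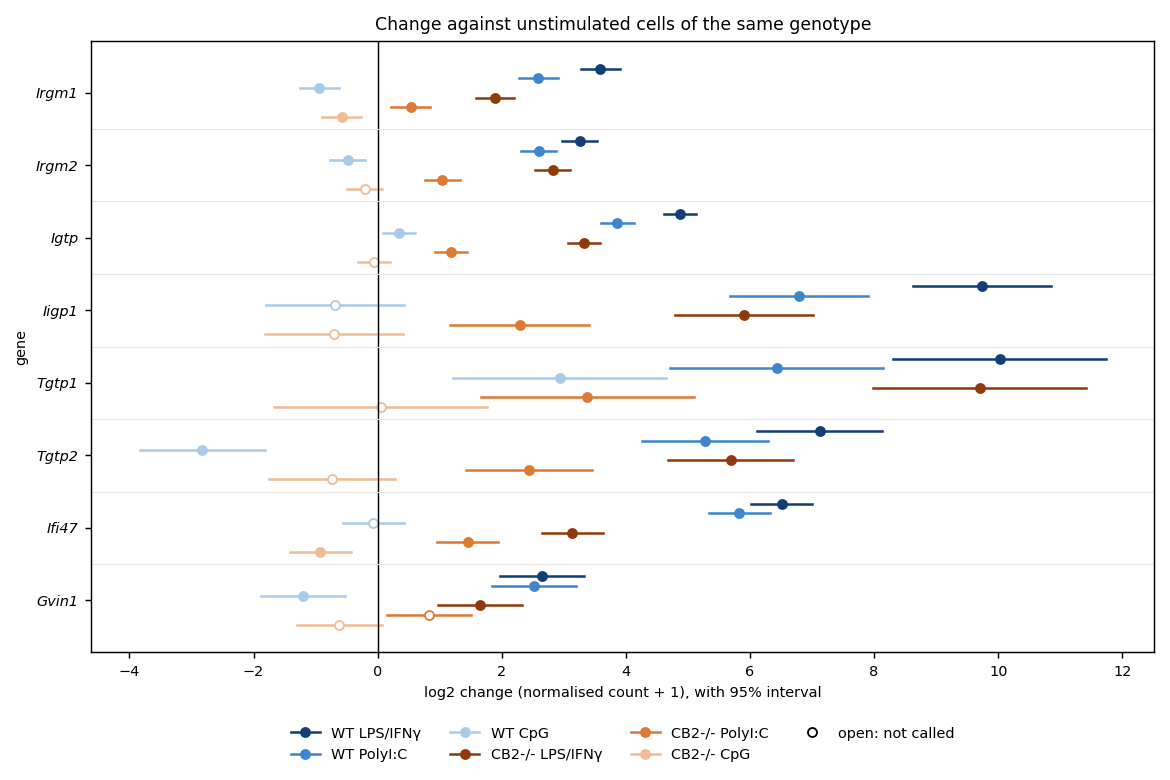
Log2 change of the normalised count + 1 against unstimulated cells of the same genotype for each of the 8 genes, with 95% intervals; blue tones are wild type, orange tones CB2-/-, and open circles were not called. LPS/IFNγ and PolyI:C changes lie to the right of 0 for all 8 genes, with PolyI:C in CB2-/- nearest to it, and CpG changes lie on both sides.

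Set against each other, LPS plus interferon-γ gave higher levels than PolyI:C for 6 of the 8 genes in wild type and for 7 in CB2-/-. Of all genes tested, 5.35% were called higher in this comparison in wild type and 6.95% in CB2-/-. The stimuli differ in their agents as well as their receptors, since interferon-γ was added with LPS only. Among the effectors, the wild-type log2 difference was 3.59 ± 0.83 (adjusted p = 0.00548) for Tgtp1, 2.04 (adjusted p = 0.000181) for Tgtp1 and Tgtp2 summed, and 2.96 ± 0.54 (adjusted p = 0.000549) for Iigp1. The libraries of the 2 stimuli did not overlap for Tgtp1 or Iigp1 in either genotype. As ratios of group means, LPS plus interferon-γ over PolyI:C, Tgtp1 and Iigp1 were at 12.2 and 7.78, and in CB2-/- cells at 70.4 and 12. The CB2-/- ratio of Tgtp1 was 126 without CB2-/- PolyI:C replicate 1.

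In wild type the GMS genes differed less between these stimuli than Tgtp1 and Iigp1. Their log2 differences were 0.99 ± 0.15 for Irgm1, 0.66 ± 0.14 for Irgm2 and 1.01 ± 0.12 for Igtp. The effector Ifi47 also differed less, by 0.68 ± 0.24 (not called), so the effectors did not all stand above the GMS genes. In CB2-/- the differences of the GMS genes were 1.36 ± 0.15, 1.78 ± 0.14 and 2.15 ± 0.12, and that of Ifi47 was 1.68 ± 0.24. For Irgm2 the difference between the genotypes was itself 1.12 ± 0.19 (adjusted p = 0.000381), and for Igtp 1.14 ± 0.18 (adjusted p = 0.000106). As ratios of means, CB2-/- to wild type, Irgm2 and Igtp were at 1.18 and 1.1 under LPS plus interferon-γ and, under PolyI:C, at 0.544 and 0.499. By the same test of the difference 4.62% of all genes were called higher. The other 6 members did not pass this test of the difference, Ifi47 coming nearest at 1.00 ± 0.34 (adjusted p = 0.0649). Ifi47 was called there without any one of wild-type unstimulated replicates 1, 3, 4 and 5 (adjusted p = 0.013 to 0.0498).

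Tgtp2 differed between LPS plus interferon-γ and PolyI:C by 1.84 ± 0.49 (adjusted p = 0.0158) in wild type, where the call was lost without wild-type LPS plus interferon-γ replicate 2 or 3 or wild-type PolyI:C replicate 1 (1.79 to 1.83, adjusted p = 0.0533 to 0.0559). The call of Tgtp2 was also lost with quantile scaling (1.64, adjusted p = 0.0592), with each number series fitted alone (1.84, adjusted p = 0.114) and with no series term (1.84, adjusted p = 0.244). The summed row of Tgtp1 and Tgtp2 differed by 2.04 (adjusted p = 0.000181) in wild type and by 3.70 (adjusted p = 4.04e-08) in CB2-/-, and these differences differed between the genotypes by 1.66 (adjusted p = 0.0275). Ifi47 did not pass the test in wild type at 0.68 ± 0.24 (adjusted p = 0.0763), with a 95% interval of 0.19 to 1.17, though its 3 LPS plus interferon-γ libraries all lay above the PolyI:C ones; it was called without wild-type unstimulated replicate 1 or 3 (adjusted p = 0.0154 and 0.0232). In CB2-/- its difference was 1.68 ± 0.24 (adjusted p = 1.89e-05). Gvin1 differed by 0.13 ± 0.33 (adjusted p = 0.884) in wild type, with an interval of -0.55 to 0.81. In CB2-/- its difference was 0.82 ± 0.33 (adjusted p = 0.121), called without wild-type unstimulated replicate 4 (adjusted p = 0.0348). In wild type, summed astrocyte markers were 803 to 960 with LPS plus interferon-γ and 56.8 to 634 with PolyI:C, and in CB2-/- 183 to 315 and 185 to 291; their part in these differences was not tested.

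**Figure D4:**
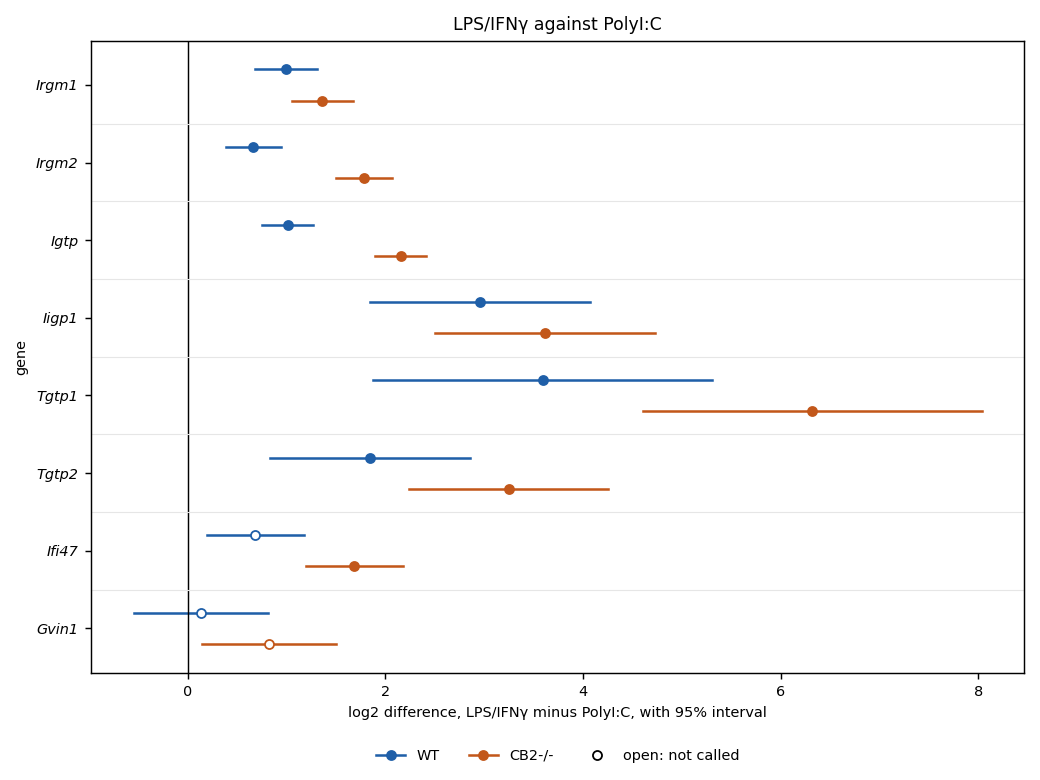
Log2 difference between LPS/IFNγ and PolyI:C for each of the 8 genes in wild type (blue) and CB2-/- (orange), with 95% intervals; open circles were not called. All 16 points lie to the right of 0, and the interval includes 0 for Gvin1 in wild type alone.

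Unstimulated CB2-/- microglia had more transcript of 7 of the 8 genes than unstimulated wild type of the same number series, where 6.25% of all genes were called higher. The numbers of these groups are not adjacent (2048 to 2050 and 2186 to 2188), and the labels do not show that they were handled together. The log2 difference was 2.93 ± 0.24 (adjusted p = 4.89e-09) for Ifi47, 3.49 ± 0.54 (adjusted p = 9.83e-05) for Iigp1 and 2.18 ± 0.12 (adjusted p = 2.82e-11) for Igtp. It was 1.53 ± 0.15 for Irgm1, 1.09 ± 0.14 for Irgm2 and 1.76 ± 0.33 for Gvin1, all called. Tgtp1, at or near 0 in both groups, gave 0.65 ± 0.83 (adjusted p = 0.695) with an interval of -1.07 to 2.37. The summed row of Tgtp1 and Tgtp2 gave 3.48 (adjusted p = 9.84e-08), and Gvin1 with Gm4070 1.33 (adjusted p = 0.000841). For Irgm1, Irgm2, Igtp, Iigp1 and Ifi47 the 3 CB2-/- libraries lay above all 6 wild-type libraries of both series, as they did for 8.56% of all genes. For Tgtp2 the difference of 3.70 ± 0.49 holds against replicates 4 to 6 alone: replicates 1 to 3 (31.4 to 128) overlapped with CB2-/- (76.2 to 95.3), and without a series term the fitted difference was 1.99 (adjusted p = 0.0701). Gvin1 also overlapped with replicates 1 to 3. Wild-type replicates 4 to 6 were lower than 1 to 3 in 4 of the 8 genes (Irgm1, Igtp, Tgtp2 and Gvin1, with log2 differences of -0.49 to -3.42), where 5.66% of all genes were called lower. Without wild-type unstimulated replicate 5, Tgtp2 alone of these kept its call, Irgm1 (-0.39, adjusted p = 0.0501), Igtp (-0.36, adjusted p = 0.0839) and Gvin1 (-0.72, adjusted p = 0.246) losing theirs. Gvin1 also lost it without replicate 1, 3 or 6 (-0.97 to -0.68, adjusted p = 0.12 to 0.26), and summed with Gm4070 it was not called, at -0.72 (adjusted p = 0.0621). Irgm2 (-0.41 ± 0.14) was called without unstimulated replicate 1, 2 or 4 or CpG replicate 1 or 3 of wild type (-0.58 to -0.41, adjusted p = 0.00527 to 0.0436). Iigp1 (-1.16 ± 0.54) was called without unstimulated replicate 4 or CpG replicate 1 of wild type (-1.69 and -1.16, adjusted p = 0.0494 and 0.0144).

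Markers of other cells moved with the same split: summed astrocyte markers were at 1638 to 2730 in wild-type replicates 4 to 6 and at 168 to 243 in unstimulated CB2-/- cells, and summed fibroblast markers at 878 to 2587 and 86.4 to 148. All 8 astrocyte markers were above 0 in every library of both groups. The part of these other cells in the differences was not tested.

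Responses of many of the 8 genes to both stimuli were smaller in CB2-/- than in wild type. Wild-type responses come from libraries 3012 to 3023 and CB2-/- responses from 2048 to 2188. Genotype and number series therefore cannot be told apart in these differences. For PolyI:C the difference between the log2 responses, CB2-/- minus wild type, was called for 7 of 8 genes, all lower, where 13.9% of all genes were called lower. It was -4.50 ± 0.76 (adjusted p = 8.23e-05) for Iigp1, -4.37 ± 0.34 (adjusted p = 8.08e-10) for Ifi47, -2.69 ± 0.18 (adjusted p = 6.34e-11) for Igtp and -2.06 ± 0.21 (adjusted p = 9.82e-08) for Irgm1. It was -2.83 ± 0.69 for Tgtp2, -1.55 ± 0.19 for Irgm2 and -1.69 ± 0.47 for Gvin1. Gvin1 lost its call under quantile scaling (-1.03, adjusted p = 0.17) and with equal sums after leaving out Gm19220, Gm26822 and Grip2 (-1.31, adjusted p = 0.0542). Tgtp1 had -3.05 ± 1.17 (adjusted p = 0.0611). It was called without wild-type unstimulated replicate 2, wild-type CpG replicate 1 or 3, CB2-/- unstimulated replicate 3 or CB2-/- PolyI:C replicate 1, where it was -4.04 to -3.05 (adjusted p = 0.00859 to 0.0496). The summed row of Tgtp1 and Tgtp2 gave -2.77 (adjusted p = 9.65e-05), and Gvin1 with Gm4070 -1.38 (adjusted p = 0.00466).

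For LPS plus interferon-γ the response was lower in CB2-/- for 4 of 8 genes, with 8.36% of all genes called lower. These were Iigp1 (-3.85 ± 0.76), Ifi47 (-3.37 ± 0.34), Irgm1 (-1.69 ± 0.21) and Igtp (-1.54 ± 0.18), with adjusted p of 0.00107 or less. Irgm2 at -0.44 ± 0.19 (adjusted p = 0.161), Tgtp2 at -1.43 ± 0.69 (adjusted p = 0.206), Gvin1 at -1.0 ± 0.47 (adjusted p = 0.188) and Tgtp1 at -0.32 ± 1.17 (adjusted p = 0.914) did not pass. Their 95% intervals were -0.84 to -0.04, -2.86 to 0.00, -1.96 to -0.04 and -2.75 to 2.11. The summed row of Tgtp1 and Tgtp2 gave -1.11 (adjusted p = 0.143). When single libraries were left out, 7 to 8 genes had a smaller PolyI:C response and 4 a smaller response to LPS plus interferon-γ. Without unstimulated, PolyI:C and CpG replicate 1 of wild type together, Tgtp2 (-1.89, adjusted p = 0.0484) and Gvin1 (-1.35, adjusted p = 0.0375) were called lower for LPS plus interferon-γ too.

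A response is a difference from the unstimulated level, which was higher in CB2-/- cells. In stimulated cells, where genotype and number series are the same split and cannot be told apart, the levels are given side by side. With PolyI:C the mean ± SD of Igtp was 4459.6 ± 165 in wild type and 2224 ± 40.5 in CB2-/- (n = 3 each). For Iigp1 it was 1879.7 ± 52.3 and 424 ± 98, and for Ifi47 2872 ± 358 and 1005 ± 166. The CB2-/- to wild-type ratio of means under PolyI:C ran from 0.167 for Tgtp1 to 0.544 for Irgm2 and was below 1 for all 8 genes. Without CB2-/- PolyI:C replicate 1 it was 0.0933 for Tgtp1. Under LPS plus interferon-γ it ran from 0.349 for Iigp1 to 1.18 for Irgm2, and was 0.962 for Tgtp1 and 0.824 for Gvin1. Ranked by mean, 5 genes (Irgm1, Iigp1, Tgtp1, Tgtp2 and Ifi47) had the same 4 highest groups in the same order: LPS plus interferon-γ in wild type, the same in CB2-/-, PolyI:C in wild type and PolyI:C in CB2-/-. Within that order the neighbouring ranges overlapped for LPS plus interferon-γ of Tgtp1 in both genotypes, and for Ifi47 between CB2-/- LPS plus interferon-γ and wild-type PolyI:C. Irgm2 and Igtp had CB2-/- LPS plus interferon-γ at the top, and Gvin1 had wild-type PolyI:C in second place.

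**Figure D5:**
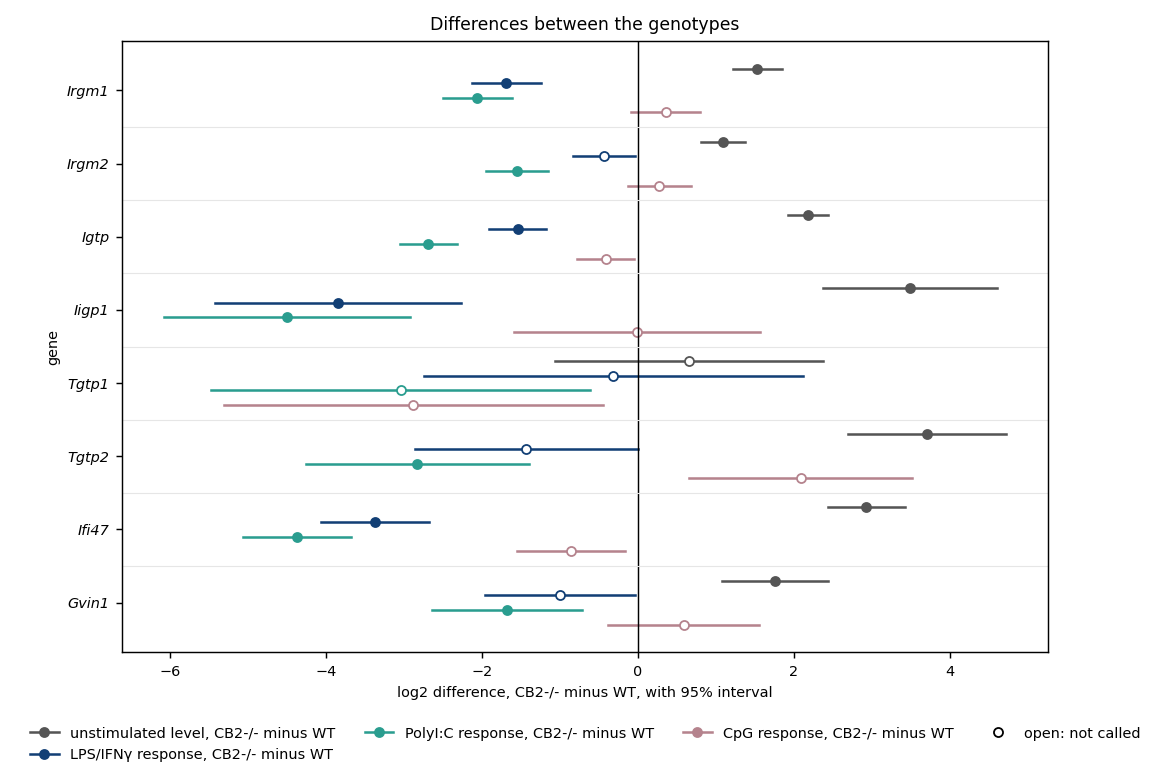
Log2 difference between CB2-/- and wild type for each of the 8 genes, with 95% intervals: the unstimulated level (grey) and the responses to LPS/IFNγ (dark blue), PolyI:C (green) and CpG (pink); open circles were not called. Unstimulated differences lie to the right of 0 and PolyI:C response differences to the left for all 8 genes.

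With CpG, calls among the 8 genes fell on both sides in wild type, more of them lower than higher, and the higher ones depended on the processing. In wild type 2 were called higher (Igtp, 0.35 ± 0.12, adjusted p = 0.0306, and Tgtp1, 2.93 ± 0.83 (adjusted p = 0.00736)) and 4 lower, where 16.5% and 19.6% of all genes were called higher and lower. The count of 2 higher is near the share of all genes. The lower ones were Tgtp2 (-2.83 ± 0.49), Gvin1 (-1.20 ± 0.33), Irgm1 (-0.94 ± 0.15) and Irgm2 (-0.48 ± 0.14). Iigp1 (-0.68 ± 0.54, adjusted p = 0.356) and Ifi47 (-0.07 ± 0.24, adjusted p = 0.865) were not called. Tgtp1 had counts of 29.7, 25.8 and 3.25 and Tgtp2 of 17.7, 2.23 and 14 after CpG. Their sum fell by 1.31 on the log2 scale (adjusted p = 0.00335), opposite in direction to Tgtp1 alone. The rise of Igtp was lost without any one of 5 libraries: 0.20 to 0.36 (adjusted p = 0.0535 to 0.23) without wild-type unstimulated replicate 1, 2 or 3 or wild-type CpG replicate 1 or 2. The fall of Irgm2 was lost without wild-type unstimulated replicate 3 or CpG replicate 3 (-0.34 and -0.36), and that of Gvin1 without unstimulated replicate 1 (-0.85, adjusted p = 0.061). Tgtp1 was 3.92 (adjusted p = 0.000611) without unstimulated replicate 2 and 3.85 (adjusted p = 0.000844) without CpG replicate 3. Tgtp2 was -2.03 (adjusted p = 0.000444) without CpG replicate 2. Without unstimulated, PolyI:C and CpG replicate 1 together, Igtp (0.21, adjusted p = 0.263), Tgtp1 (1.93, adjusted p = 0.153) and Gvin1 (-0.93, adjusted p = 0.0505) were not called.

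In CB2-/- cells CpG lowered Irgm1 (-0.58 ± 0.15, adjusted p = 0.00854) and Ifi47 (-0.92 ± 0.24, adjusted p = 0.00778) where 7.44% of all genes were called lower. None was called higher by limma, where 6.82% of all genes were called higher. None was higher at an unadjusted p under 0.05 either, where 3513 of the 14668 genes tested passed in either direction. Of the 8 genes, 0 passed limma's test for a CpG response that differed between the genotypes, against 6.11% of all genes higher and 5.66% lower. At an unadjusted p under 0.05 there were 4, namely Igtp (-0.42 ± 0.18), Tgtp1 (-2.88 ± 1.17), Tgtp2 (2.09 ± 0.69) and Ifi47 (-0.86 ± 0.34). Of all 14668 genes tested, 3694 passed at that unadjusted p in either direction. Tgtp1 and Tgtp2, of opposite sign, gave 0.60 (adjusted p = 0.479) when summed. Igtp was called without wild-type CpG replicate 3 (-0.56, adjusted p = 0.026), and Ifi47 without wild-type unstimulated replicate 3 (-1.21, adjusted p = 0.00745). Tgtp1 was called without wild-type unstimulated replicate 2 (-3.87, adjusted p = 0.0214) or CpG replicate 3 (-3.80, adjusted p = 0.0248). Tgtp2 was called without wild-type unstimulated replicate 2, 5 or 6, wild-type CpG replicate 1 or 3 or CB2-/- PolyI:C replicate 2 (2.09 to 2.63, adjusted p = 0.0101 to 0.0489).

 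Against CpG, LPS plus interferon-γ and PolyI:C were each higher for all 8 genes in both genotypes. The share of all genes called higher than with CpG was 19.7% and 17.6% in wild type and 6.36% and 6.39% in CB2-/-. Of all calls against CpG in wild type, 60% with LPS plus interferon-γ and 58.4% with PolyI:C were higher, against 27.9% and 26.8% with equal sums after leaving out Gm19220, Gm26822 and Grip2, where all 8 genes stayed higher. In CB2-/- the PolyI:C difference of Tgtp1 from CpG (3.33 ± 0.83, adjusted p = 0.00796) was lost without CpG replicate 3 (2.68, adjusted p = 0.0673) or PolyI:C replicate 1 (2.77, adjusted p = 0.0605). In wild type, leaving out CpG replicate 3 moved the difference of Tgtp1 from CpG from 7.09 to 6.17 for LPS plus interferon-γ and from 3.5 to 2.58 for PolyI:C, and in CB2-/- from 9.65 to 9.0 for LPS plus interferon-γ. Without wild-type CpG replicate 1 that of Iigp1 moved from 10.43 to 9.38 and from 7.47 to 6.42, and without replicate 2 that of Tgtp2 from 9.95 to 9.16 and from 8.10 to 7.31. All of these stayed called.

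Other IRG and very large GTPase genes of the table also moved with these stimuli. Of 14 tested, 10 rose with LPS plus interferon-γ and 11 with PolyI:C in wild type, and 10 and 7 in CB2-/-. The median log2 change over the 14 was 2.07 and 2.10 in wild type. Irgq, a family member without GTPase activity, was not called at -0.16 ± 0.24 (adjusted p = 0.638) with LPS plus interferon-γ. Gm12250, which RefSeq lists with the synonym Irgb10, a GKS gene, changed by 4.43 ± 0.21 in wild type and 2.70 ± 0.21 in CB2-/-. GENCODE M21 lists Gm12250 as a processed pseudogene, on chromosome 11 at 58187739 to 58189012, near Igtp and Irgm2. Gm4951 changed by 5.50 ± 0.34 and 4.16 ± 0.34, and F830016B08Rik by 5.57 ± 0.68 and 4.97 ± 0.68. Unstimulated CB2-/- cells had more of 4 of the 14, the PolyI:C response was smaller in CB2-/- for 4, and 8 fell with CpG in wild type. The shares of all genes called in these comparisons were 6.25%, 13.9% and 19.6%. Gm4070, with which Gvin1 has 99% of its 31-base words in common, is among the 14. Reads of shared sequence may have been divided between such genes, so the 14 are not all separate measurements.

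The guanylate-binding proteins, GTPases that act on the same vacuoles, rose in 11 of 11 cases with LPS plus interferon-γ in wild type (median 7.5) and in 9 with PolyI:C (median 5.27). In CB2-/- they rose in 11 and 8. LPS plus interferon-γ exceeded PolyI:C for 8 of 11 in wild type and 10 in CB2-/-, and unstimulated CB2-/- cells had more of 7. Gbp2 changed by 8.52 ± 0.33 with LPS plus interferon-γ and 6.47 ± 0.33 with PolyI:C in wild type. For Gbp2b the changes were 6.26 ± 0.69 and 0.59 ± 0.69 (adjusted p = 0.538), the second not called. Gbp3 changed by 7.5 ± 0.43 and 6.84 ± 0.43, and Gbp4 by 9.47 ± 0.31 and 5.81 ± 0.31.

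Of 12 genes of the type I interferon response, 4 were lower and 0 higher by limma with LPS plus interferon-γ than with PolyI:C in wild type, where 3.91% of all genes were called lower. At an unadjusted p under 0.05, 8 were lower and 0 higher, with a median difference of -0.67 against 1.00 over the 8 genes. Of all 14668 genes tested, 3034 passed at that unadjusted p in either direction. Whether the lists differ from each other was not tested. The difference was -0.64 ± 0.17 for Ifit1 and -1.10 ± 0.19 for Ifit3, while Ifit2 (-0.40 ± 0.25) and Rsad2 (-0.83 ± 0.28) were not called. In CB2-/- cells 7 of the 12 were higher with LPS plus interferon-γ than with PolyI:C. All 12 rose with both stimuli in wild type, all 12 were higher in unstimulated CB2-/- cells, and the PolyI:C response was smaller in CB2-/- for all 12.

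Upstream of the IRG genes, 5 of 8 listed interferon ligands and receptors were tested. Ifnb1, the gene of interferon-β, rose with LPS plus interferon-γ in wild type (4.49 ± 0.92, adjusted p = 0.000353) and in CB2-/- (4.03 ± 0.92, adjusted p = 0.00191) and was not called with PolyI:C in wild type (1.48 ± 0.92, adjusted p = 0.217). Ifngr1, the ligand-binding chain of the interferon-γ receptor, fell in wild type by 2.47 with LPS plus interferon-γ and by 1.82 with PolyI:C on the log2 scale. In CB2-/- it changed by -0.75 ± 0.11 and, not called, by -0.28 ± 0.11. Ifngr2, the signalling chain, was higher with PolyI:C in wild type (0.69 ± 0.10), and Ifnar1, of the type I receptor, was not called under either stimulus in either genotype.

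Of 11 kinases and transcription factors of the interferon route, 9 rose with LPS plus interferon-γ and 8 with PolyI:C in wild type, and 8 and 7 in CB2-/-. The kinase Jak2 changed by 3.0 ± 0.16 and 3.06 ± 0.16 in wild type, Tyk2 by 1.06 ± 0.13 and 0.79 ± 0.13, and Jak1 by 0.20 ± 0.09, not called, and 0.26 ± 0.09. Irf1, an interferon-γ-induced transcription factor named here after its values were seen, was higher with LPS plus interferon-γ than with PolyI:C by 2.72 ± 0.20 in wild type and 2.82 ± 0.20 in CB2-/-. Its responses did not pass the test for a difference between genotypes (-0.38 ± 0.28 (adjusted p = 0.474) for LPS plus interferon-γ and -0.47 ± 0.28 (adjusted p = 0.251) for PolyI:C).

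Among 6 inhibitors of interferon signalling, 5 rose and 1 fell with LPS plus interferon-γ in wild type, and 4 rose in CB2-/-. Socs1, which blocks the receptor kinases, changed by 7.72 ± 0.65 in wild type and 3.55 ± 0.65 in CB2-/-, Socs3 by 5.06 ± 0.23 and 2.64 ± 0.23, Usp18 by 4.38 ± 0.15 and 1.71 ± 0.15, and the phosphatase gene Ptpn2 by 2.20 ± 0.17 and 1.10 ± 0.17. Of 14 genes of the TLR3, TLR4 and TLR9 route, 10 rose and 3 fell with LPS plus interferon-γ and 8 rose and 4 fell with PolyI:C in wild type. Tlr3 rose by 1.45 ± 0.21 and 2.64 ± 0.21, Tlr4 fell by 1.42 and 1.60, and Tlr9 changed by 0.25 ± 0.21, not called, and -1.52 ± 0.21. Cd14, a co-receptor for LPS, rose by 1.23 ± 0.25 and 1.37 ± 0.25. Of all genes tested in wild type, 21.7% rose and 18% fell with LPS plus interferon-γ. With PolyI:C 3108 of the 14668 genes rose and 2924 fell. The numbers of route genes that fell are near these shares of all genes.

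Of 10 ATG8 conjugation genes, whose proteins direct IRG loading onto vacuoles, 3 rose and 1 fell with LPS plus interferon-γ in wild type (median 0.14), and 1 rose and 1 fell in CB2-/-. These counts are near the shares of all genes, of which 21.7% rose and 18% fell in wild type and 12.8% and 10.9% in CB2-/-. Atg3 rose by 0.72 ± 0.15 and Atg12 by 0.58 ± 0.21, while Atg5 (-0.18 ± 0.14) and Atg7 (-0.29 ± 0.20) were not called. Of 6 ubiquitin and adaptor genes of the vacuole, 3 rose and 2 fell in wild type with LPS plus interferon-γ. Trim21 rose by 2.63 ± 0.19, Sqstm1 by 1.46 ± 0.12 and Rnf213 by 2.55 ± 0.15, and Traf6 was not called (0.25 ± 0.18).

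Over the 9 group means, with unstimulated wild type split by number series, the 28 pairs of members had Pearson correlations of 0.813 to 0.99, with a median of 0.976. These points share libraries and scaling, and the values are a description without a test. The genes outside the 8 whose profile was most like the members' mean were Gm12250 (r = 0.9966), Rnf31 (0.9885), Gbp6 (0.9872), Gbp4 (0.9858), Idnk (0.9857) and Samhd1 (0.9852). The single nearest gene was Gm12250 for Irgm1 and Iigp1, Tap2 for Irgm2, Gbp6 for Igtp, Atxn7l1 for Tgtp1, Parp10 for Ifi47, and the gene model Gm42763 for Tgtp2 and Gvin1.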

How the data were processed

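RNA of cultured microglia was sequenced as 75-base single-end reads in 27 libraries. Per the labels' protocols, a TruSeq v2 kit on a HiSeq1500 and a SMART-Seq2 protocol on a NextSeq500 were both used; the labels do not tie libraries to kits. CASAVA 1.8, kallisto and DESeq2 appear in the submitters' processing notes. A genome build or annotation was not given in the sources used here. One deposited table holds the authors' values, a table of normalised counts per gene (entered as signal), which are not whole numbers: within a tolerance of 0.1, only 5.64 to 78.6% of the low values of a library fell on multiples of 1 step, so reads were not recovered and no count test was run. The authors also deposited a batch-corrected table with values below 0, a log2-like score, used only as an alternative. Columns of per-sample values not used numbered 0.

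Values were tested on the log2(normalised count + 1) scale, where the pseudocount of 1 understates changes of low genes. Genes with at least 10 in at least 3 libraries were kept. One limma 3.58.1 fit (R 4.3.3, empirical Bayes with a trend, two-sided) over the 27 libraries had a term per group and one for the number series, and p-values were adjusted by Benjamini-Hochberg over the 14668 genes tested; intervals are 95%. The script was tested on simulated data. Depth is known only as the summed normalised counts, which limits what can be said of low values. No pair of replicates held identical values. Figures were drawn with matplotlib 3.10.9.

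The 8 genes and all lists were chosen with earlier results of these data known. The text names the 8 genes, up to 4 tested genes per list in the order written (1 of these is not reported here), Irf1, and the genes of most similar profile. Alternatives changed the pseudocount, the filter, the scaling (quantile, upper quartile or equal sums after leaving out Gm19220, Gm26822 and Grip2), the series term, the weights, the variance model, the input table and the libraries. Sums of Tgtp1 with Tgtp2 and of Gvin1 with Gm4070 and ratios of means without single libraries were added after the data were seen.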

Additional observations from a re-analysis of the deposited data

Results flagged for a closer look

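A response that differed between wild type and CB2-/- cells by the test of the difference itself puts 13 results here, given as log2 differences with limma's adjusted p. In all of them genotype and number series cannot be told apart. For LPS plus interferon-γ, CB2-/- minus wild type, these were -1.69 ± 0.21 (adjusted p = 5.26e-06) for Irgm1, -1.54 ± 0.18 (adjusted p = 1.39e-06) for Igtp, -3.85 ± 0.76 (adjusted p = 0.00107) for Iigp1 and -3.37 ± 0.34 (adjusted p = 1.84e-07) for Ifi47. For PolyI:C they were -2.06 ± 0.21 (adjusted p = 9.82e-08) for Irgm1, -1.55 ± 0.19 (adjusted p = 1.4e-06) for Irgm2, -2.69 ± 0.18 (adjusted p = 6.34e-11) for Igtp and -4.50 ± 0.76 (adjusted p = 8.23e-05) for Iigp1. Under the same stimulus they were -2.83 ± 0.69 (adjusted p = 0.00343) for Tgtp2, -4.37 ± 0.34 (adjusted p = 8.08e-10) for Ifi47 and -1.69 ± 0.47 (adjusted p = 0.00902) for Gvin1. The difference between LPS plus interferon-γ and PolyI:C was wider in CB2-/- by 1.12 ± 0.19 (adjusted p = 0.000381) for Irgm2 and 1.14 ± 0.18 (adjusted p = 0.000106) for Igtp. In unstimulated wild type, the group with 6 libraries, no library of any of the 8 genes lay apart from the others by Dixon's test at the 95% level.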

How the results depend on the processing

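Of 5758 alternative values for single genes, 5621 kept their side of the threshold, 51 lost a call, 84 gained one and 2 reversed. A change of sign counted as a reversal only where the main or the alternative value was called. Changes of sign between values that were both not called are therefore among the 5621. Both reversals concern Tgtp1 with CpG in wild type, at -0.12 in the authors' batch-corrected table and -1.31 summed with Tgtp2. Of 1426 alternative counts of called genes, 35 moved by more than 1.5 times; the cause was not tested. For CpG in wild type, the 2 higher genes became 1 with no filter, with equal sums after leaving out Gm19220, Gm26822 and Grip2 (termed equal sums), with each series fitted alone and with array weights, and 0 in the batch-corrected table and without the 3 replicates 1. The 4 lower ones became 1 with no series term. In CB2-/- the 2 genes lower with CpG became 1 with no series term and 4 with array weights. For a CpG response that differed between genotypes, the 0 higher became 1 with a pseudocount of 5, a filter of 50, equal sums or without the 3 replicates 1, and 2 with array weights, and the 0 lower became 1 with quantile scaling or the batch-corrected table. For LPS plus interferon-γ against PolyI:C between genotypes, the 2 higher became 4 with a pseudocount of 5 or the batch-corrected table and 6 with array weights. The 4 genes lower in wild-type replicates 4 to 6 became 7 with array weights.

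With single libraries left out, counts ran from 1 to 2 higher and 3 to 4 lower for CpG in wild type, 5 to 8 for PolyI:C in CB2-/-, 0 to 1 higher and 0 to 2 lower for the CpG difference between genotypes, and 2 to 3 for LPS plus interferon-γ against PolyI:C between genotypes. They ran from 5 to 7 and 7 to 8 for that comparison within wild type and within CB2-/-, and from 1 to 6 for replicates 4 to 6 against 1 to 3. Equal sums moved the median of all genes by -0.488 (LPS plus interferon-γ) and -0.434 (PolyI:C) in wild type. They took the share of higher genes among all calls from 54.6 to 26.8% and from 51.5 to 26.7%, in CB2-/- from 54.1 to 32.7% and from 59.8 to 42.8%, and for the genotype difference from 32.3 to 61.9% and from 43.8 to 69.6%. For LPS plus interferon-γ against PolyI:C it went from 58.3 to 37.3% in CB2-/- and from 50 to 37.3% between genotypes, and against CpG in CB2-/- from 62.5 to 31.5%. Against CpG in wild type the median of all genes moved by -0.438 (LPS plus interferon-γ) and -0.39 (PolyI:C). Quantile scaling took the share from 32.3 to 44.8% for the LPS plus interferon-γ genotype difference and from 59.8 to 46.3% for PolyI:C in CB2-/-. Against CpG it went from 60 to 43.7% (LPS plus interferon-γ) and 58.4 to 46.7% (PolyI:C) in wild type and from 62.5 to 47.6% for LPS plus interferon-γ in CB2-/-. No direction of a called gene among the 8 turned under these scalings. No paired analysis was possible because the labels give no replicate numbers, and those used here only name libraries.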
